A study of Mus musculus with 6 samples.

Results

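The cadherin superfamily was examined in urogenital ridges of mouse embryos at E11.5, with and without the Wilms tumour gene Wt1. Its members on the array were taken as the probes whose single gene symbol is Cdh with a number, begins with Pcdh, or is Dsg2, Dsc2, Celsr1, Celsr2, Celsr3 or Fat1. This gave 62 of 20289 probes, for 55 of the 13769 genes named by a single symbol, and no probe for Fat1. Wild-type embryos of the Mf1 stock were compared with Mf1 embryos homozygous for a Wt1 deletion, on 3 single-colour CodeLink arrays per genotype. Every array was labelled as the ridges of 5 embryos (1 male, 4 female) that had reached 11 to 12 tail somites, and no treatment was given. The labels do not describe the deletion as limited to a cell type. They also do not say whether the 3 arrays of a genotype hold separate pools, so a p-value here reflects array-to-array spread that may be technical. The ridge was profiled in bulk, where fewer cells of a type and less RNA per cell cannot be told apart.

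Cadherins are membrane proteins that bind cells to each other in the presence of calcium, mostly by pairing with the same cadherin on the neighbouring cell. The classical cadherins hold adherens junctions and pass force to actin through p120-catenin, beta-catenin and alpha-catenin, whereas many protocadherins and the Celsr proteins serve recognition between neurons and the polarity of cell sheets. In the ridge, the nephric duct and the mesonephric tubules are epithelial, and the coelomic epithelium gives rise to mesenchyme and to cells of the gonad.

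Of the 55 genes, 40 had a probe bright enough to be tested. In the knockout, 2 fell, the epithelial cadherin gene Cdh1 and the mesenchymal cadherin gene Cdh11. A further 7 rose, namely Celsr3, Pcdh11x, Pcdh15, Cdh15, Pcdhb1, Pcdhb13 and Pcdhgb4, and the other 31 did not pass. A call here is an adjusted p under 0.05 in limma's moderated test, adjusted by Benjamini-Hochberg over all 15062 tested probes. Calls were made for 22.5% of the tested cadherin family genes against 41.3% of all tested probes, of which 24.1% were called higher and 17.2% lower. The family's probes were dim. Of the 40 genes, 31 lay at or below the median tested probe and 8 of them were called, where 26.8% of all probes below that median were called. Above the median 1 of 9 was called, against 55.8% of all probes there. Wild-type and knockout values were fully apart for 16 of the 40 genes and for 52.8% of all tested probes. Called with a change of at least 1.5-fold were 5 members, Cdh1, Cdh11, Celsr3, Pcdh11x and Pcdh15, and 15.5% of all tested probes.

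**Figure D1:**
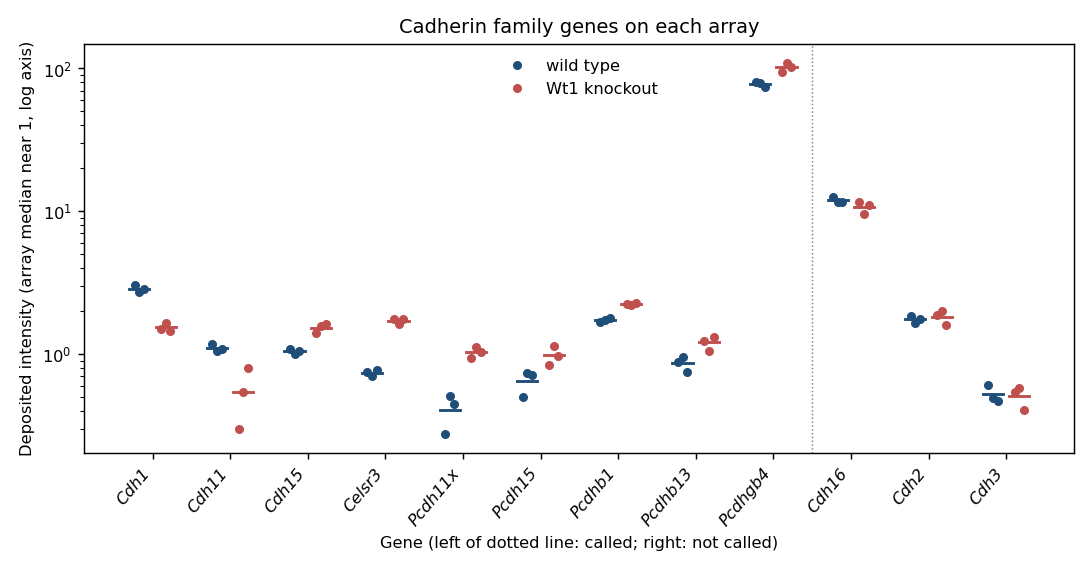
Deposited intensity of 12 cadherin family genes on each of the 6 arrays (log axis). Points are arrays and horizontal bars are means of 3. The 9 genes left of the dotted line were called and their genotypes do not overlap, with Cdh1 at 2.74 to 3.06 on the wild-type arrays against 1.45 to 1.66. The 3 genes on the right were not called.

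The upstream sequence of a gene could be set beside its values where RefSeq's table (GRCm38.p6) held it, which it did for 17 of the 55 genes. It held none for the called falls Cdh1 and Cdh11, or for Cdh16, so their upstream sequences were not examined. Celsr3 is shown beside its paralogue Celsr2, since only Celsr3 was called, and Cdh15 and Pcdh15 are shown as genes that rose with it. Each line gives 250 bases before the annotated start, 5′ to 3′ on the gene's strand. Capitals mark CAGGTG on either strand, an E-box that Snail and Zeb repressors are known to bind. The windows are chr9:108825795-108826044 (plus strand) for Celsr3, chr3:108415580-108415829 (minus strand) for Celsr2, chr8:122848124-122848373 (plus strand) for Cdh15 and chr10:73821617-73821866 (plus strand) for Pcdh15.
Celsr3: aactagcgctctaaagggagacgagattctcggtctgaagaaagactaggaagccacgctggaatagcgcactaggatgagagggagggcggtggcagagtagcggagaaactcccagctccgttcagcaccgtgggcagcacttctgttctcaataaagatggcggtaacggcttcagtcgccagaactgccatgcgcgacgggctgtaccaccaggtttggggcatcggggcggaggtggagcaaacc
Celsr2: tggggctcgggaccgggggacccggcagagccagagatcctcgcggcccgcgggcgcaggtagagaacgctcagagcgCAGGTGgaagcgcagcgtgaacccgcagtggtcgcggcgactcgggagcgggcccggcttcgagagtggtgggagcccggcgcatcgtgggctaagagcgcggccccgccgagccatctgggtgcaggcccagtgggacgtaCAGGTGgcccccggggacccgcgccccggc
Cdh15: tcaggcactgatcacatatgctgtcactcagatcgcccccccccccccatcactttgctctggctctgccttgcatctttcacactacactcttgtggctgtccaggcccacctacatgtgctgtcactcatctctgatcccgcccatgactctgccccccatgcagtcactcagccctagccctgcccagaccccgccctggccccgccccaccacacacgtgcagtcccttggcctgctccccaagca
Pcdh15: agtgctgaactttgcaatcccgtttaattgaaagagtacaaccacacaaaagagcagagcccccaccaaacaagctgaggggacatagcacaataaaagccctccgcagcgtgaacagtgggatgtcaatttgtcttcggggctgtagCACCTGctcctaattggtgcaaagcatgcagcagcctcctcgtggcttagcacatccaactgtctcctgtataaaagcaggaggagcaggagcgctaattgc

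The Celsr2 window held CAGGTG 2 times, 172 and 30 bases before the start, and the Pcdh15 window 1 time, 102 bases before it. The letters were not in the Celsr3 and Cdh15 windows. Over all 32851 windows of the same length, 17.2% held CAGGTG on either strand, and of the 17 member genes with a window Celsr2 and Pcdh15 did. GCGTGGGNG, a motif that the zinc fingers of Wt1 and Egr1 are known to bind, was in 1.65% of all windows (either strand). None of the 17 members' windows held it. With so low a share over all windows, its absence from 17 does not set the family apart. Celsr2 and Pcdh15, which share the E-box letters, had log2 changes of 0.03 and 0.61.

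Cdh1 encodes E-cadherin, the adherens junction protein of epithelia. Its intensities were 3.06, 2.74 and 2.84 in the wild-type arrays and 1.51, 1.66 and 1.45 in the knockout arrays. All knockout arrays lay below all wild-type arrays. The average went from 2.88 ± 0.165 to 1.54 ± 0.112 (SD, n = 3 per genotype). The fitted log2 change was -0.91 ± 0.09 (SE), or 1.87-fold lower, with adjusted p = 2.16e-05 (limma). Cdh1 stayed called in all 15 alternative settings, with log2 changes from -0.96 to -0.86.

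Cdh16 encodes Ksp-cadherin, an atypical cadherin of renal tubules and ducts with a short cytoplasmic tail. Its intensities were 12.6, 11.6 and 11.7 in the wild-type arrays and 11.7, 9.51 and 11.0 in the knockout arrays, and the genotypes overlapped. The log2 change was -0.16 (95% interval -0.35 to 0.03, adjusted p = 0.165, limma), and the gene passed as lower without knockout array 1 (-0.23, adjusted p = 0.0154). The log2 ratio of Cdh1 to Cdh16 within an array was -2.04, -2.08 and -2.05 in wild type and -2.96, -2.51 and -2.92 in knockout. The signals of these 2 epithelial genes thus changed unequally, with a difference in the mean ratio of -0.75. The pair was chosen after its values were seen, and 3 arrays against 3 cannot give an exact permutation p below 0.1.

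Markers of the epithelia of the ridge were measured on the same arrays. Among nephric duct and tubule genes, 3 of 9 tested members rose (Gata3, Ret and Hoxb7) and 1 fell, Epcam, another epithelial adhesion gene, from 8.70 to 7.25. That is 33.3% called higher and 11.1% lower, against 24.1% and 17.2% of all tested probes. Ret is also on the neural crest list below, and the adjusted p of Hoxb7 reached 0.0514 over the alternatives (limma). The call of Epcam ended without any 1 of the wild-type arrays (adjusted p = 0.0594 to 0.101). The summed intensity of that list was 93.9 to 95.2 in wild type, against 94.0 to 109 in knockout, and Pax8 and Sim1 were too dim to be tested. Among genes of the coelomic epithelium and mesothelium, 6 of 10 fell (60.0% against 17.2% of all tested probes) and none rose. Wt1 itself was 1 of the 6. The summed intensity of this list was 111 to 120 against 67.9 to 69.6, a sum in which Wt1 and the retinoid enzyme gene Aldh1a1 weigh heavily. It was 72.3 to 76.0 against 53.5 to 54.4 without Wt1 and 56.0 to 58.2 against 51.3 to 52.5 without both. Krt18, Upk1b, Bnc1 and Lrrn4 did not pass, with log2 changes of 0.07, 0.13, 0.20 and 0.43, and Msln and Gpm6a were too dim to be tested. The part of either cell type in the fall of Cdh1 was not tested.

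Cdh2, the N-cadherin of mesenchyme, neural tube and mesothelium, had intensities of 1.85, 1.65 and 1.77 in wild type and 1.89, 1.99 and 1.59 in knockout. The genotypes overlapped, and the log2 change was 0.05 (95% interval -0.19 to 0.29, adjusted p = 0.755, limma). Cdh3, which encodes the P-cadherin of basal epithelia, read 0.609, 0.496 and 0.473 in wild type and 0.542, 0.575 and 0.409 in knockout on its brighter probe, with overlap and a log2 change of -0.06 that did not pass. Its second probe was too dim to be tested. Cdh4, the R-cadherin gene, spread widely in the knockout, at 0.352, 0.527 and 0.839 against 0.701, 0.512 and 0.770 in wild type, and did not pass (log2 change -0.28, 95% interval -0.91 to 0.35).

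Cdh15 encodes M-cadherin, the classical cadherin of myoblasts and satellite cells. It rose from 1.09, 1.01 and 1.06 in wild type to 1.41, 1.57 and 1.63 in knockout, with no overlap. The average went from 1.05 ± 0.0371 to 1.54 ± 0.116 (SD, n = 3 per genotype). The fitted log2 change was 0.54 ± 0.11 (SE), or 1.46-fold higher, with adjusted p = 0.00193 (limma), and the gene was called in all 15 alternatives. Most tested genes of somites and skeletal muscle moved the same way on these arrays. Of 14 tested markers, 11 rose and none fell, where 24.1% of all tested probes were called higher. Myod1 rose from 0.428 to 1.31 and Myf5 from 0.309 to 1.51. Under quantile and cyclic loess normalization 1 and 2 of the markers were called lower, and 1 without knockout array 2. Actc1, Pax3 and Meox1 did not pass, with log2 changes of -0.17, -0.12 and 0.06. The list summed to 66.9 to 69.0 in wild type, against 85.6 to 94.2 in knockout, and Myog was too dim to be tested. Actc1, at means of 39.5 in wild type and 35.2 in knockout without overlap, weighs heavily in that sum. The part of muscle precursors in the rise of Cdh15 was not tested.

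Among the type II cadherins, 3 of 8 genes on the array could be tested. Cdh11, the cadherin of loose mesenchyme and osteoblasts, had intensities of 1.18, 1.06 and 1.08 in wild type and 0.300, 0.540 and 0.798 in knockout. The wild-type arrays lay close together, whereas the knockout arrays were spread widely, and all of them lay below wild type. The average went from 1.11 ± 0.0647 to 0.546 ± 0.249 (SD, n = 3 per genotype). The fitted log2 change was -1.13 ± 0.28 (SE), or 2.19-fold lower, with adjusted p = 0.00676 (limma). Without knockout array 1, the lowest, it was -0.75 and the call held (adjusted p = 0.00133). Of 16 mesenchyme and matrix markers, 6 fell and 3 rose, 37.5% and 18.8% of them, against 17.2% and 24.1% of all tested probes. Col1a1 went from 2.33 to 0.549 and Pdgfra from 82.3 to 130. The log2 change of Pdgfra, 0.66, ran from 0.34 to 0.71 over the alternatives. Under cyclic loess normalization 10 of the 16 were called lower. That list summed to 441 to 453 against 451 to 490, and the part of mesenchyme in the fall of Cdh11 was not tested.

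The neural cadherin gene Cdh10 read 0.478, 0.362 and 0.565 in wild type and 0.304, 0.0683 and 0.307 in knockout, which did not overlap. Its log2 change of -1.23 ± 0.49 (SE) missed the threshold (adjusted p = 0.065, limma), and 1 knockout array lay under the floor. It passed without knockout array 1 (adjusted p = 0.0145), without knockout array 3 (0.0345) under cyclic loess normalization (0.0485) and with the replicate block (0.0284). Without knockout array 2, the array under the floor, the log2 change was -0.59 (adjusted p = 0.126), and over all alternatives the adjusted p ran from 0.0145 to 0.213. Cdh9 did not pass, at means of 0.231 and 0.266. The others, Cdh5, Cdh6, Cdh8, Cdh20 and Cdh22, were too dim on every probe. Cdh5, the VE-cadherin of endothelium, read 0.171, 0.202 and 0.0894 in wild type and 0.0107, 0.240 and 0.293 in knockout, while of 13 endothelial markers that could be tested 5 fell and 1 rose. That is 38.5% called lower and 7.69% higher, against 17.2% and 24.1% of all tested probes. Both probes of Cdh6, a cadherin of the developing nephron, ranged from 0.0299 to 0.292 over the 6 arrays. On 1 probe the values were 0.183, 0.17 and 0.243 in wild type and 0.0604, 0.14 and 0.0299 in knockout, without overlap. The other read 0.151, 0.227 and 0.292 against 0.265, 0.237 and 0.0842, with overlap. A dim probe does not show that its gene is silent.

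The desmosomal cadherin genes could not be assessed either, with Dsg2 at 0.0801 to 0.213 and Dsc2 at -0.0748 to 0.264. Of the remaining atypical genes, Cdh13, which encodes a cadherin held in the membrane by a lipid anchor, had means of 0.387 and 0.241, without overlap and without passing (log2 change -0.76, 95% interval -1.57 to 0.05). Cdh23, which forms the tip links of hair cells together with Pcdh15, and Cdh26 did not pass, at log2 changes of -0.04 and 0.47.

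Pcdh15 rose on its brighter probe, from 0.499, 0.733 and 0.715 to 0.846, 1.14 and 0.971. The genotypes did not overlap on it, and the log2 change was 0.61 ± 0.18 (SE), or 1.53-fold higher, with adjusted p = 0.019 (limma). The call ended without wild-type array 1 (adjusted p = 0.0843) and without knockout array 2 (0.0665). The second probe had means of 0.395 and 0.426 and a log2 change of 0.11 ± 0.24, which did not pass. Averaging both probes gave 0.36 (adjusted p = 0.145), so the call of this gene rests on 1 probe.

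Celsr3 had the smallest adjusted p of the tested family genes. This seven-pass cadherin is known for guiding axon tracts and is expressed in neurons after they leave the cell cycle. Its intensities were 0.756, 0.701 and 0.774 in the wild-type arrays and 1.77, 1.62 and 1.77 in the knockout arrays. The genotypes lay far apart and each varied little. The average went from 0.744 ± 0.0379 to 1.72 ± 0.0824 (SD, n = 3 per genotype). The fitted log2 change was 1.21 ± 0.11 (SE), or 2.31-fold higher, with adjusted p = 8.94e-06 (limma), and was at least 1.17 in all 15 alternatives.

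Its paralogues Celsr1, known from planar polarity in epithelia, and Celsr2 did not pass. Celsr1 read 2.69, 2.92 and 3.04 in wild type and 2.49, 3.24 and 3.13 in knockout, with a 95% interval of the log2 change of -0.21 to 0.26. Celsr2 read 2.77, 3.02 and 2.68 against 2.82, 2.76 and 3.03, with an interval of -0.16 to 0.22. Neither interval reaches that of Celsr3, 0.96 to 1.45. The log2 ratio of Celsr3 to Celsr2 within an array went from -1.87, -2.11 and -1.79 to -0.68, -0.76 and -0.78, a pair chosen after its values were seen.

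The delta protocadherins are single-gene protocadherins with conserved cytoplasmic motifs, expressed mainly in the nervous system. Of 5 tested genes, 1 rose (20.0%, against 24.1% of all tested probes called higher). Pcdh11x, an X-linked protocadherin of the brain, had intensities of 0.274, 0.506 and 0.446 in wild type and 0.945, 1.13 and 1.03 in knockout. The genotypes were far apart, averaging 0.409 ± 0.120 and 1.04 ± 0.0926 (SD, n = 3 per genotype). The log2 change of 1.38 ± 0.23 (SE), or 2.61-fold, was the largest rise among the 40 tested genes (adjusted p = 0.000479, limma). It ranged from 1.12 to 1.56 over the 14 alternatives in which the gene could be tested.

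Pcdh9 was read by 2 probes that disagree. The brighter went from 8.03, 7.31 and 7.29 to 9.02, 8.54 and 8.0 and did not pass (log2 change 0.18 ± 0.08, SE, adjusted p = 0.0942, limma). The dimmer went from 1.23, 1.51 and 1.07 to 2.23, 2.41 and 2.12, with a log2 change of 0.84 ± 0.13 (adjusted p = 0.000294, limma). With both averaged, the gene passed (log2 change 0.51, adjusted p = 0.000922). Which part of a transcript each probe reads is not known here. Pcdh1, Pcdh7 and Pcdh18 did not pass, with log2 changes of 0.00, 0.09 and 0.06. Pcdh8, the paraxial protocadherin of somites, and Pcdh10 were too dim on all 3 of their probes.

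Pcdh12, a protocadherin of endothelium, read 1.82, 1.80 and 1.93 in wild type and 2.32, 1.97 and 2.20 in knockout, without overlap, and did not pass at adjusted p = 0.0853 (limma). It passed without knockout array 2 (adjusted p = 0.0372) and under quantile (0.0336) and cyclic loess (0.047) normalization. Its dimmer probe had a log2 change of 0.21 ± 0.44 with overlapping genotypes (adjusted p = 0.73), and averaging both gave an adjusted p of 0.387.

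Most tested neural markers rose, as Celsr3, Pcdh11x and the brighter probe of Pcdh15 did. Cdh2 and Cdh10, named above for neural tissue, did not pass, with log2 changes of 0.05 and -1.23. Nor did the delta protocadherins Pcdh1, Pcdh7, Pcdh18 and, on its brighter probe, Pcdh9, at 0.00, 0.09, 0.06 and 0.18. Of 14 tested genes of the neural tube and neurons, 10 rose and none fell, where 24.1% of all tested probes were called higher. Tubb3 went from 2.25 to 7.52 and Zic1 from 1.51 to 29.5. Sox1, Neurod1, Pax3 and Nes did not pass, with log2 changes of 0.44, 0.8, -0.12 and -0.04. Under cyclic loess normalization 1 of the 14 was called lower. The list summed to 42.6 to 42.9 in wild type, against 104 to 107 in knockout, where Zic1 weighs heavily. Of 7 genes of neural crest and sympathetic cells, 5 rose, among them Ret of the duct list, and none fell. That is 71.4% called higher, with list sums of 45.0 to 45.9 against 59.7 to 61.8. Sox2, Olig2 and Neurog2 were too dim to be tested, and Olig2 was below 0 on wild-type array 1. The part of neural cells in the rise of Celsr3, Pcdh11x and Pcdh15 was not tested.

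**Figure D2:**
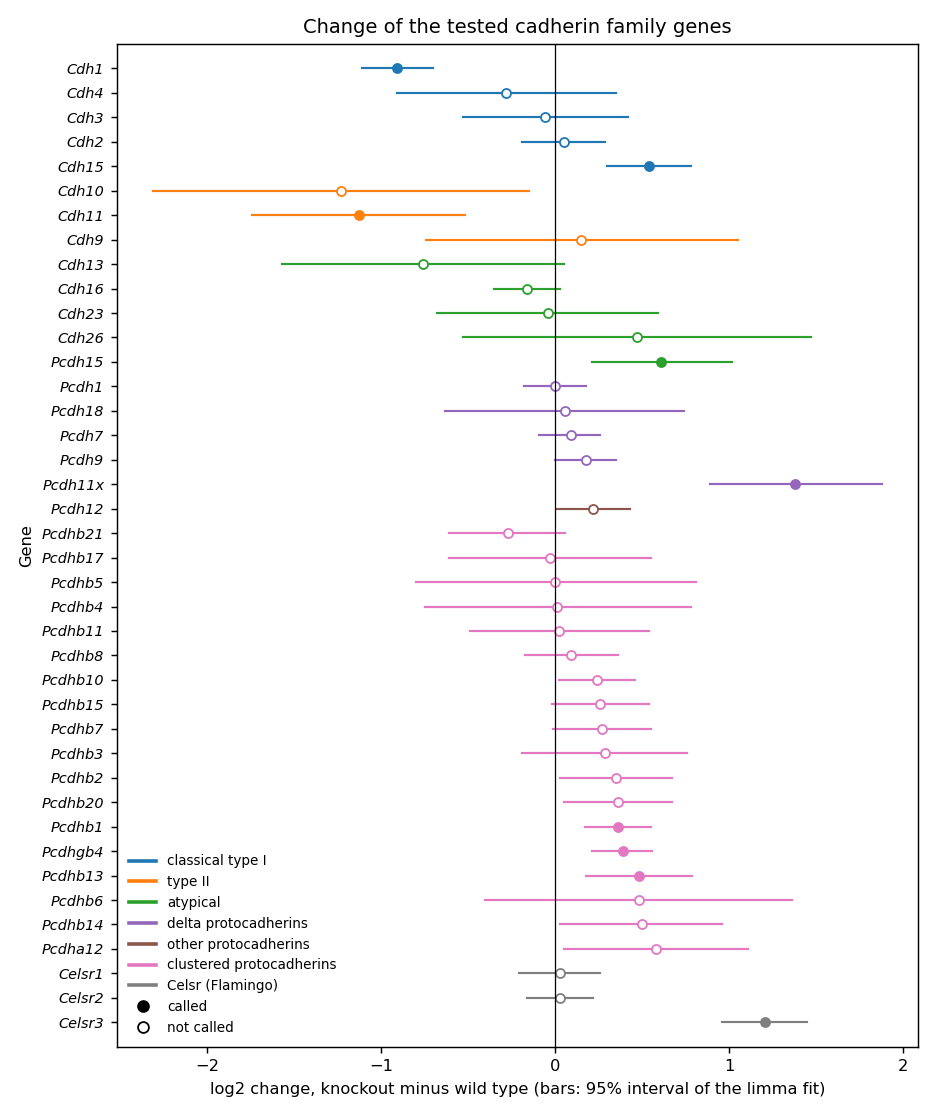
log2 change, knockout minus wild type, of the 40 tested cadherin family genes, coloured by role. Points are the fitted changes, filled where called, and bars are 95% intervals of the limma fit. Pcdh11x at 1.38 and Celsr3 at 1.21 lie highest, Cdh11 at -1.13 and Cdh1 at -0.91 are the called falls, and 16 of the 18 clustered protocadherins lie above 0.

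The clustered protocadherins are encoded in the neighbouring alpha, beta and gamma gene clusters, and their combinations give single neurons an identity. The array held 24 of these genes, nearly all of the beta cluster, and 18 were tested. Of them 3 rose and none fell, 16.7% called higher against 24.1% of all tested probes. Pcdhb1 went from 1.69, 1.74 and 1.80 in wild type to 2.24, 2.21 and 2.27 in knockout, with little spread in either genotype. It was 1.28-fold higher (log2 change 0.36 ± 0.09, SE, adjusted p = 0.0058, limma) and stayed called in all 15 alternatives. Pcdhb13 went from 0.878, 0.954 and 0.752 to 1.24, 1.06 and 1.32, a log2 change of 0.48 ± 0.14 with adjusted p = 0.0152 (limma). Its call ended without wild-type array 3 (adjusted p = 0.0721) and without knockout array 3 (0.0548).

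Pcdhgb4 was the brightest probe of the family, at 81.0, 79.5 and 74.7 in wild type and 94.1, 110 and 103 in knockout. The log2 change was 0.39 ± 0.08 (SE) with adjusted p = 0.00228 (limma). The call was lost under quantile normalization (log2 change 0.08, adjusted p = 0.309) and under cyclic loess normalization (0.11, adjusted p = 0.159). The 1883 brightest tested probes, to which it belongs, had a median log2 change of 0.26. Transcripts of the gamma cluster share their last exons, as do those of the alpha cluster, so this probe may read several gamma genes.

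The 15 clustered genes that did not pass had log2 changes from -0.27 (Pcdhb21) to 0.58 (Pcdha12). Over the 18 tested genes the median log2 change was 0.28, and 16 were above 0, against a median of 0.09 and 58.7% above 0 over all tested probes. Under quantile normalization 13 of the 18 and 52.9% of all probes were above 0. These genes are neighbours of similar sequence, so their probes may share transcripts and are not independent. The 6 untested genes were Pcdhb9, Pcdhb12, Pcdhb16, Pcdhb18, Pcdhb19 and Pcdhb22.

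**Figure D3:**
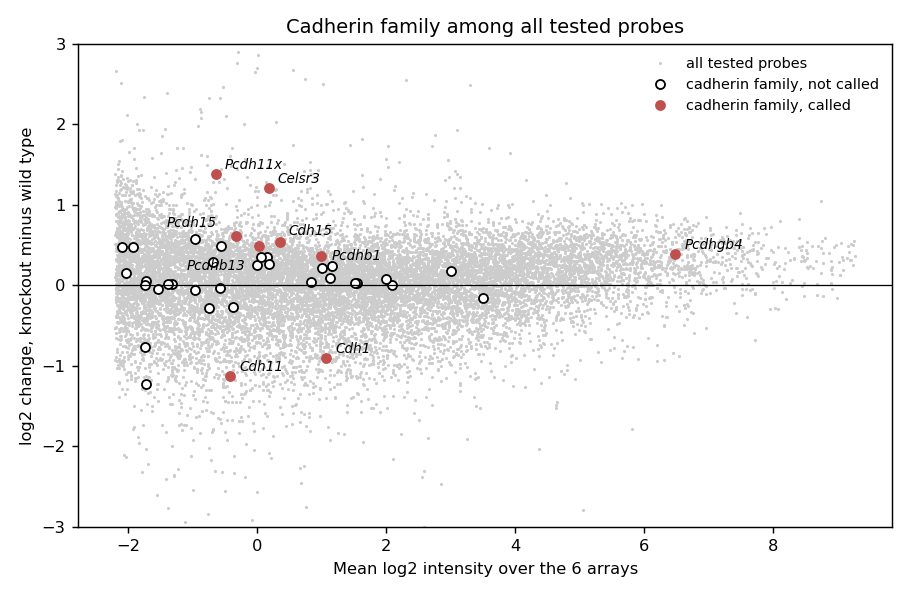
log2 change against mean log2 intensity for all 15062 tested probes (grey) and the 40 cadherin family genes (circles, filled where called). Of the 40 members 31 lie at or below the median brightness, Pcdhgb4 is the brightest, and 18 grey probes with changes beyond 3 in size lie outside the plot.

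Partner genes, broadly taken, were examined next, from lists that leave out the members themselves. The lists cover catenins and adherens junctions, desmosomes, tight junctions, regulators of epithelial-mesenchymal transition, planar polarity, and cadherin processing and signalling. Of 65 tested partner genes, 15 rose, 15 fell and 35 did not pass, with a median log2 change of -0.05. The called share, 46.2%, lay near the 41.3% of all tested probes, with 23.1% called in each direction against 24.1% higher and 17.2% lower. On the list of catenins and adherens junction partners 6 of 14 fell and 1 rose, with a median log2 change of -0.30. The 6 are 42.9% called lower against 17.2% of all probes, and the count of 6 became 3 without wild-type array 2 and with no variance trend. Ctnnd1 encodes p120-catenin, which holds classical cadherins at the membrane. It fell from 2.11, 2.23 and 2.09 to 0.839, 1.06 and 1.08, with no overlap. Its log2 change was -1.12 ± 0.12 (SE), or 2.17-fold lower (adjusted p = 2.37e-05, limma).

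Ctnna1, the alpha-catenin of epithelia, went from 3.34, 3.50 and 3.49 to 3.11, 2.06 and 2.46. Its call (adjusted p = 0.0131, limma) was lost without wild-type array 2 (0.05), without wild-type array 3 (0.0545) and with no variance trend (0.0631). Lima1, an actin-binding partner of the junction, also fell (log2 change -0.43, adjusted p = 0.00243), and Arvcf, a p120 relative, rose 1.48-fold (log2 change 0.56, adjusted p = 0.00017). The other called genes of the list are named after their values were seen. Ctnnb1, which encodes beta-catenin, fell 1.30-fold, from 5.72, 5.94 and 5.35 to 4.62, 4.37 and 4.12 (adjusted p = 0.00286, limma). Cdc42, a GTPase of actin assembly, fell too (log2 change -0.27, adjusted p = 0.0202), a call lost without wild-type array 1 (0.0954), without wild-type array 2 (0.0801) and with no variance trend (0.0693). The 2 probes of the neural alpha-catenin gene Ctnna2 were called in opposite directions. The brighter, counted above, was lower (log2 change -0.27, adjusted p = 0.0443) and lost its call in 9 alternatives, and the dimmer was higher (0.81, adjusted p = 0.0116). Their average was 0.27 (adjusted p = 0.147), so no direction is given for Ctnna2. Jup, which encodes plakoglobin, had means of 0.540 and 0.252 and did not pass (adjusted p = 0.0669).

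**Figure D4:**
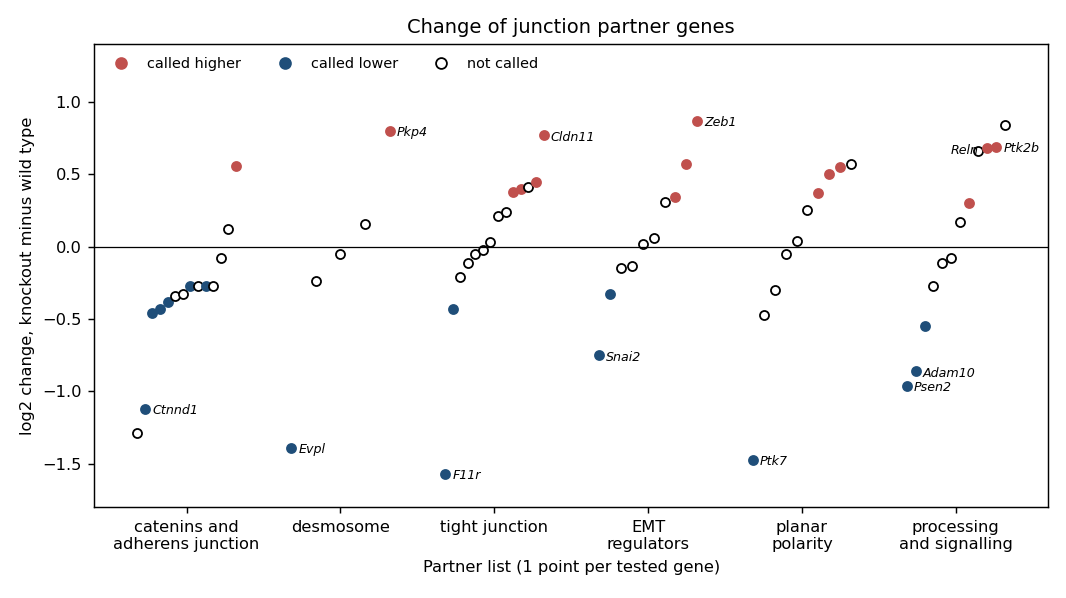
log2 change, knockout minus wild type, of the tested junction partner genes, 1 point per gene and list. F11r at -1.57, Ptk7 at -1.47, Evpl at -1.39 and Ctnnd1 at -1.12 were called lower, and Zeb1 at 0.87, Pkp4 at 0.80 and Cldn11 at 0.77 higher.

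Other junction genes moved in both directions. Of 14 tight junction genes, 4 rose and 2 fell, 28.6% and 14.3% of them, near the all-probe shares of 24.1% and 17.2%. F11r, which encodes the junctional adhesion molecule JAM-A, fell 2.98-fold, from 1.16, 0.885 and 1.12 to 0.280, 0.423 and 0.370 (adjusted p = 9.76e-05, limma). Cldn5, the claudin of endothelium, fell with a log2 change of -0.43. Jam3, a relative of F11r, and Cldn11, a claudin of myelin and Sertoli cells, rose with log2 changes of 0.45 and 0.77, that of Jam3 being 0.19 under quantile normalization (adjusted p = 0.0228). Cldn3 and Cldn4, named after their values were seen, rose too. Their log2 changes were 0.38 and 0.4 (adjusted p = 0.00224 and 0.00263, limma), and Cldn7 did not pass (0.03). Of 5 desmosomal plaque genes, Evpl, which encodes envoplakin, fell 2.63-fold, from 3.26, 3.64 and 3.27 to 1.10, 1.27 and 1.54 (adjusted p = 6.27e-06, limma). Pkp4, a plakophilin related to p120, rose 1.74-fold, from 22.5, 21.7 and 20.8 to 32.6, 41.5 and 39.8 (adjusted p = 4.06e-05). Its log2 change of 0.80 was 0.61 under quantile normalization, where it stayed called.

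Of 10 regulators of epithelial-mesenchymal transition, 3 rose and 2 fell, 30.0% and 20.0% of them, against 24.1% and 17.2% of all tested probes. The 2 became 0 without wild-type array 3, without knockout array 3 and with no variance trend. Zeb1, which encodes a repressor, rose 1.83-fold, from 2.31, 2.47 and 2.24 to 4.02, 4.41 and 4.39 (adjusted p = 1.24e-05, limma). Snai2, which encodes the repressor Slug, read 14.6, 15.4 and 15.2 in wild type and 14.4, 6.74 and 7.38 in knockout. Knockout array 1 lay near the wild-type values. The call (adjusted p = 0.0143, limma) ended without knockout array 2 (0.0539), knockout array 3 (0.0542) or wild-type array 3 (0.06), and with no variance trend (0.0891). Twist2 rose 1.48-fold, and Foxc2 rose with a log2 change of 0.34, which was 0.09 under quantile normalization (adjusted p = 0.338). Snai1, named after its values were seen, fell (log2 change -0.33, adjusted p = 0.0479, limma), and 9 of the 15 alternatives ended its call. The part of these regulators in the fall of Cdh1 was not tested.

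Among the planar polarity partners of the Celsr and Fat proteins, 3 of 10 rose, 30.0% against 24.1% of all probes, and 1 fell. Ptk7, a receptor-like polarity protein, fell 2.78-fold, from 6.01, 6.29 and 5.65 to 2.25, 2.01 and 2.20 (adjusted p = 3.01e-07, limma). Fzd3, the Frizzled receptor that acts with Celsr3 in axon guidance, rose from 2.71, 3.05 and 2.72 to 3.70, 4.62 and 4.10, with a log2 change of 0.55 (adjusted p = 0.000917, limma). Scrib and Prickle2 rose with log2 changes of 0.50 and 0.37. Under quantile normalization these were 0.25 (adjusted p = 0.0247) and 0.17 (adjusted p = 0.0753), and cyclic loess normalization also ended the call of Prickle2 (0.0613).

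Of 12 genes of cadherin processing and signalling, 3 rose and 3 fell, where 24.1% of all probes were called higher and 17.2% lower. Adam10, the protease that sheds the extracellular part of E-cadherin, fell 1.81-fold, from 2.97, 3.01 and 2.71 to 1.38, 1.89 and 1.56 (adjusted p = 0.00014, limma). Psen2, a subunit of gamma-secretase, fell 1.95-fold (adjusted p = 0.00156). Reln, a neuronal matrix signal, and Ptk2b, a relative of focal adhesion kinase, rose with log2 changes of 0.68 and 0.69.

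The check of the targeted gene and of the arrays applies to all values above. On its brighter probe Wt1 read 44.1, 43.6 and 39.1 in wild type and 14.3, 15.7 and 14.2 in knockout. Where this probe lies relative to the deletion is not known here, so it does not tell how much intact transcript is left. The arrays had medians of 0.956 to 0.966 and values for 20077 to 20099 probes. Correlations across probes, which are not independent replicates, were 0.991 to 0.992 within wild type, 0.983 to 0.986 within knockout and 0.966 to 0.972 between genotypes. Of 9 gonadal primordium markers 7 fell and 1 rose, 77.8% and 11.1% of them, against 17.2% and 24.1% of all tested probes. Blood and macrophage markers summed to 1470 to 1510 against 1460 to 1570, nearly all of it 4 globin probes, and the other 6 tested genes to 10.3 to 11.3 against 10.5 to 13.1. Of them the macrophage genes Aif1 (2.54 to 3.52) and Tyrobp (2.31 to 3.06) rose, and the leukocyte gene Coro1a (2.65 to 1.86) fell, Tyrobp losing its call in 6 alternatives. Hepatocyte and gut markers summed to 20.6 to 21.0 against 24.7 to 26.0, a sum that hides changes in both directions. Of 10 tested, 3 rose and 3 fell, 30.0% each, against 24.1% and 17.2% of all tested probes. Gcg, dim in wild type, went from 0.161 to 2.90, Ttr from 0.588 to 3.75 and Spink1 from 3.62 to 0.789. These genes are named after their values were seen.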

How the data were processed

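Biotin-labelled total RNA was hybridised to single-colour CodeLink arrays, per the labels' protocols. The deposited values are intensities on a linear scale with array medians near 1, and no source used here gives the authors' software, background correction or flagging. No further normalization was applied. Intensities under the 5th percentile of positive values (0.0811) were raised to it before log2. Tested probes had values on 2 or more arrays of each genotype and a mean above the 25th percentile over probes (intensity 0.217), which left 15062 of 20289. The comparison used limma 3.58.1 (R 4.3.3; eBayes with an intensity trend, 2-sided, Benjamini-Hochberg over all tested probes) and was tested on simulated data. A gene is its brightest tested probe with values on all 6 arrays. Means ± SD are of deposited intensities, and folds come from the log2 change.

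The platform's gene annotation, possibly dated, gave 1 symbol for 15120 probes, several for 38 and none for 5131, and all 62 members matched RefSeq by Entrez identifier. Precision is limited by the number of arrays. The naming rule took called members and Cdh1, Cdh2, Cdh3, Cdh5, Cdh6, Cdh11 and Cdh16 with every array, and up to 4 called genes of largest change per partner list. Array values of Cdh4, Cdh10, Celsr1, Celsr2, Pcdh9 and Pcdh12 were added after they were seen. Members and lists were chosen with earlier results of these data known.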

Additional observations from a re-analysis of the deposited data

How the results depend on the processing

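Each called count of the family and of a gene list, and each of 67 named genes, was recomputed under 15 alternatives where it could be tested: quantile or cyclic loess normalization, no floor, a floor at the 10th percentile, no filter on dim probes or a filter at the median, no variance trend, the replicate block, averaged probes, and each array left out. Marker lists, marker genes and sums without single genes were added after seeing the data, and list sums and pair ratios were not recomputed. Of 987 gene values, 901 kept their direction and side of the threshold, 50 lost the call, 14 gained it and 22 changed sign. Apart from Ctnna2 (0.27 with probes averaged), the sign changes were in genes that had not passed. With an array left out, log2 changes ranged over -0.02 to 0.14 for Cdh2, -0.15 to 0.09 for Cdh3, -0.6 to 0.03 for Cdh4, -0.04 to 0.43 for Cdh9, -0.2 to 0.08 for Cdh23, -0.04 to 0.14 for Celsr1, -0.01 to 0.08 for Celsr2, -0.05 to 0.03 for Pcdh1 and -0.07 to 0.16 for Pcdh18. Under quantile and cyclic loess normalization Cdh9 was at -0.11 and -0.08, and Pcdh18 at -0.14 and -0.14. The count of cadherin family genes called lower, 2 as reported, was 1 with the filter at the median of probe means, where Cdh11 was too dim to be tested, and ran from 2 to 4 with an array left out. It was 4 without knockout array 1, where Cdh10 and Cdh16 joined. The count called higher ran from 6 to 9. The number of clustered protocadherin genes above 0 was 9 of 9 tested with the filter at the median. Genes called lower ran from 3 to 8 for the catenin list and 0 to 2 for the transition regulators, and genes called higher from 7 to 11 for the neural and 6 to 11 for the muscle markers. Over the alternatives all probes called numbered 4783 to 7338.

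Same-numbered arrays of the genotypes did not deviate together (r = 0.000489, -0.0208 and -0.00572 across probes). This does not exclude that they were prepared together, and the main comparison left them unpaired. With the replicate block 7 family genes were called higher and 3 lower, Cdh10 being the added one, and all probes called numbered 6019. Dim signal limits what can be said of the 15 untested genes.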
